A study of Homo sapiens with 160 samples.

Results

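Carbachol is a stable analogue of acetylcholine that activates muscarinic receptors. Its effect on RNA levels after 6 h was measured in BEAS-2B, an immortalised line of human bronchial epithelial cells, as the difference between libraries with and without carbachol that carried the same replicate number. There were 20 such pairs in 40 of the study's 160 samples: 5 pairs in each of 4 backgrounds. The backgrounds were vehicle alone (labelled NS), mometasone (MF, 100 nM), a glucocorticoid; indacaterol (Ind, 100 nM), a long-acting agonist of the β2-adrenoceptor; and both drugs together. Carbachol (CCh) was given at 10 µM. All cells, controls included, were confluent and had spent the preceding night without serum. All came from a single cell line, and the labels do not say whether replicates were separate cultures, so p-values reflect only how far these libraries scatter, and that scatter may be technical. The pairs were pooled to ask what of the carbachol response is left at 6 h, and the samples treated for 1, 2 and 18 h served to place those values in time.

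Muscarinic receptors that couple to Gq activate phospholipase C, which releases calcium from the endoplasmic reticulum (ER) and activates protein kinase C and the ERK cascade. The first transcriptional targets of such signals are immediate early genes, among them FOS, EGR1 and the NR4A nuclear receptors, whose RNAs usually rise and decay quickly. The ER, which stores the released calcium, folds secreted and membrane proteins with calcium-binding chaperones. HSPA5 (BiP) is its main HSP70 chaperone, and CALR (calreticulin) is a calcium-binding chaperone of glycoproteins. When folding is disturbed, the sensors ATF6, IRE1 and PERK raise the chaperone genes and transcription factors such as XBP1 and DDIT3.

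Between 12524 and 13146 genes reached a value of 1 in each of the 40 libraries, and 13760 of 29273 genes entered the test. RNA of the mitochondrial genome took 6.59% to 16.8% of the total in 39 libraries and 28.0% in replicate 1 of the mometasone plus indacaterol background without carbachol. TSC22D3, a glucocorticoid target, stood at 428 to 930 in the 20 libraries with mometasone and at 4.74 to 10.5 in the 20 without. NR4A3, a cyclic AMP target, stood at 0.88 to 2.64 with indacaterol and at 0.09 to 0.46 without, so both drugs left a mark that matches the labels. Of the 9 epithelial markers listed, 6 (KRT5, KRT8, KRT17, KRT18, CDH1, CLDN1) averaged 1 or more, while KRT19, EPCAM and TP63 were lower. The fibroblast markers COL1A1, COL1A2, COL3A1, DCN, PDGFRB and VIM also averaged 1 or more, and the 8 fibroblast markers summed to 1705 to 2732 without carbachol and 1912 to 2570 with it. Of 6 leukocyte markers CD68, a lysosomal protein, averaged 16.6 and the other 5 averaged below 1, with list sums of 12.8 to 23.6 without carbachol and 12.6 to 23.0 with it. Of 4 neuronal markers TUBB3, a tubulin, averaged 20.4 and the others below 1, with sums of 14.2 to 26.5 and 14.7 to 34.8. All 4 endothelial markers averaged below 1. The part of these marker levels in the results was not tested, and in bulk RNA fewer cells of a type and less RNA per cell cannot be told apart.

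After 6 h of carbachol 21 genes differed at an adjusted p below 0.05 (limma over all tested genes, replicate number as a block), which is 0.153% of the 13760 tested; 7.08% had an unadjusted p below 0.05. Of these 15 (0.109%) were higher and 6 (0.0436%) were lower. The ER chaperone HSPA5 had the smallest adjusted p, followed by CALR and the keratin KRT8. The changes were small: the rises lay between 1.11-fold for GPC1 and 1.24-fold for NR4A1, on the log2(value + 1) scale on which all changes here are given. GP1BB, a gene of low and uneven values, had a change of -0.96, and the next largest fall was -0.37 in LRRC26. Over all tested genes the median change was 0.0016 and 51.2% lay above 0. Fitted without the replicate number, HSPA5 alone was called (adjusted p = 0.00262). With the 5 means over backgrounds as the only observations, none was called, and 1106 genes had an unadjusted p below 0.05. The count was 9, all higher, without the library of high mitochondrial share and its pair. Leaving out a replicate number left 4 to 15 genes, and only HSPA5 and CALR were called in all 5 of those fits.

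**Figure D1:**
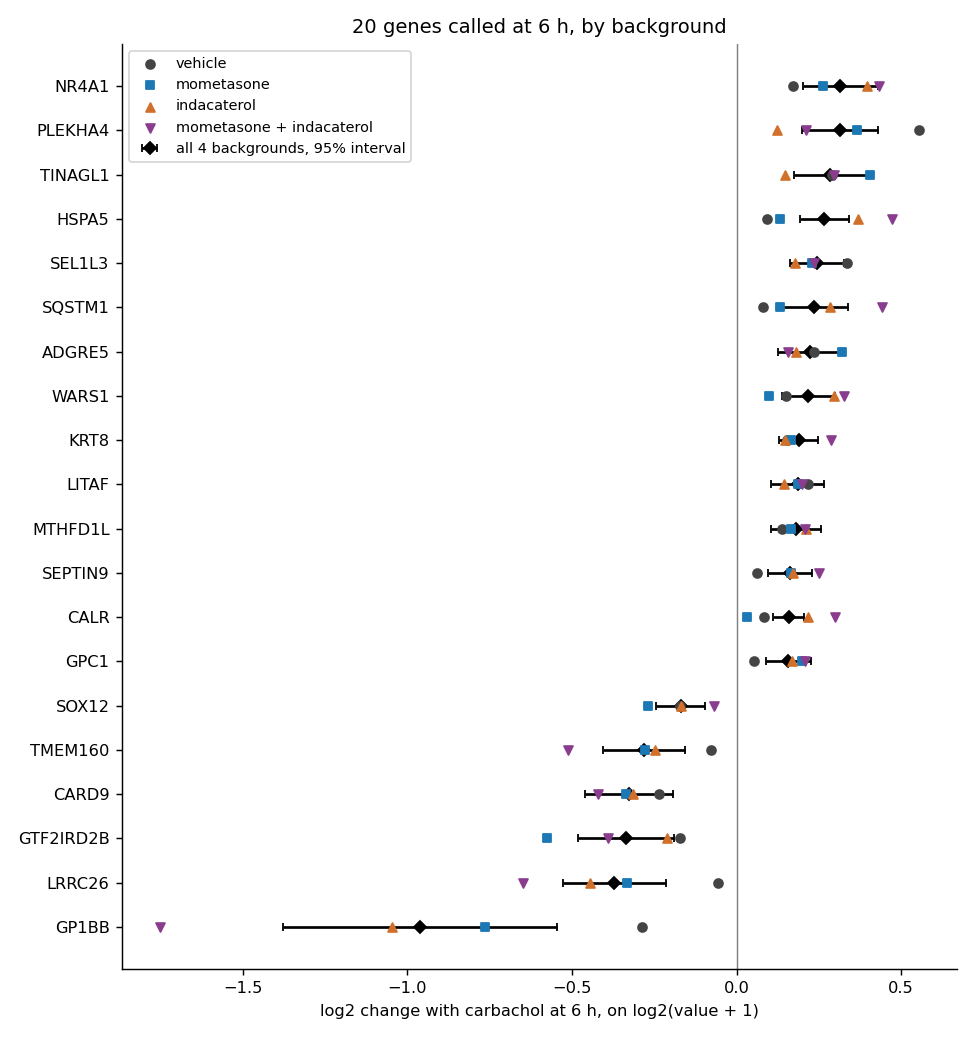
Log2 change with carbachol at 6 h for 20 of the 21 called genes. Diamonds give the change pooled over 4 backgrounds with its 95% interval, and coloured symbols the change in each background (5 pairs each). All 20 kept their sign in each background, which their selection on the pooled value favours. Genes in which both backgrounds with indacaterol lie to the right of both without include HSPA5, CALR, SQSTM1, WARS1 and NR4A1.

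HSPA5 and CALR are shown here with the bases before their start sites because they alone, among the called genes with a listed promoter, hold the ER stress response element (ERSE) there. This element, CCAAT and CCACG separated by 9 bases, on either strand, is known to be bound by NF-Y and ATF6, and 0.153% of the 10451 genes tested at 6 h with a RefSeq promoter hold it in the 250 bases before the start (0.074% of all 35116 windows). Of the 21 called genes 17 had a promoter in the RefSeq table (GRCh38.p14), and 2 of these held the element. The windows of XBP1 and HERPUD1, ER stress genes that had risen at 2 h and were not called at 6 h, are given for comparison. XBP1 holds ERSE, and HERPUD1 holds the related ERSE-II (ATTGG and CCACG separated by 1 base, either strand), found for 0.134% of those tested genes (0.0513% of all windows). Capitals mark ERSE or ERSE-II, each line is the 250 bases before the start site from 5′ to 3′ on the gene's strand, and a match is a description of the letters, not a measured site. HSPA5 is read from the minus strand at chr9:125241344-125241593, CALR from the plus strand at chr19:12938359-12938608, XBP1 from the minus strand at chr22:28800570-28800819 and HERPUD1 from the plus strand at chr16:56931892-56932141.
HSPA5: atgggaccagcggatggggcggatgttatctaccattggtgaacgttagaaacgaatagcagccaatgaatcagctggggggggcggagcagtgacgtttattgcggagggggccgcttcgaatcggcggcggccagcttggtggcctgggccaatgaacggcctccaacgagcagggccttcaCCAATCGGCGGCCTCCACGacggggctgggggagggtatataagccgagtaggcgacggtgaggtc
CALR: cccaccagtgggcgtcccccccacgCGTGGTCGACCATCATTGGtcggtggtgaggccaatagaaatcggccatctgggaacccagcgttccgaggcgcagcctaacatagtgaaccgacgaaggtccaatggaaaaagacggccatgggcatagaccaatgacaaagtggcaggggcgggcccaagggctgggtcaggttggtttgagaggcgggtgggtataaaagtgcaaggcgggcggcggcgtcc
XBP1: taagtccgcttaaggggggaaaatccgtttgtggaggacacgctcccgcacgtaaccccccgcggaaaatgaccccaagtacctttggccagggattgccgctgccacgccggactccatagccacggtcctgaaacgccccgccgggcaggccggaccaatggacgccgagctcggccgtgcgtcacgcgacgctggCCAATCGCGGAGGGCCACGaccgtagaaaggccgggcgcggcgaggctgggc
HERPUD1: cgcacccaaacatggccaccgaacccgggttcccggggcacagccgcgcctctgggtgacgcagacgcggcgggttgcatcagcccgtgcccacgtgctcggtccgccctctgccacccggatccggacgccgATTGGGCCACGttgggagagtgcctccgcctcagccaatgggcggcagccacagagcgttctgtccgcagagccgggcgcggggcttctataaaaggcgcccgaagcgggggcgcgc

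The HSPA5 element began 66 bases before the start site in the CCAAT orientation, and that of CALR 225 bases before it on the opposite strand. In XBP1 the element began 52 bases before the start. No promoter of the 17 called genes held the UPRE (TGACG directly followed by TGG) or the CRE (TGACG directly followed by TCA), which 0.986% and 3.50% of the tested genes with a promoter hold (0.612% and 1.65% of all windows). XBP1, which was not called at 6 h, carries the same element as HSPA5. Whether the ERSE letters separate genes still higher at 6 h from those that had returned was not tested.

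HSPA5 was higher with carbachol in 19 of 20 pairs at 6 h. In the vehicle background replicates 1 to 5 had 174, 152, 163, 138 and 165 without carbachol and 187, 165, 158, 165 and 170 with it. The mometasone background had 117, 105, 114, 114 and 118 without and 131, 123, 123, 128 and 118 with carbachol. In vehicle the 2 groups overlapped. In mometasone every library with carbachol was above every library without, but barely so in replicate 5 (118 in each after rounding). With indacaterol the values were 190.0, 159, 177, 156 and 171 without and 247, 232, 188, 232 and 207 with carbachol, and with both drugs 101, 112, 125, 112 and 127 without and 193, 172, 135, 151 and 152 with it. In the background with both drugs every library with carbachol was above every library without, and with indacaterol alone only replicate 3 with carbachol (188) lay below the highest library without. The pooled change was 0.27 (SE 0.04, 95% interval 0.19 to 0.34, or 20.3% higher, adjusted p = 4.35e-04).

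The change of HSPA5 was 0.09 in vehicle, 0.13 in mometasone, 0.37 in indacaterol and 0.47 in both drugs, or 1.07-, 1.10-, 1.29- and 1.39-fold. The backgrounds with indacaterol exceeded those without by 0.31 (SE 0.07, unadjusted p = 2.20e-04), which did not pass over all genes (limma, adjusted p = 0.34). In the 2 backgrounds without indacaterol alone the change of 0.11 did not pass (adjusted p = 1.00), and in the 2 with it the change was 0.42 (adjusted p = 2.33e-05). Without the background of both drugs the pooled change was 0.20 and no longer passed (adjusted p = 0.094). Without the library of high mitochondrial share and its pair it was 0.24 (adjusted p = 3.47e-04).

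CALR, the more abundant of the pair, averaged 689 over the 40 libraries and was higher with carbachol in 17 of 20 pairs. Vehicle libraries had 739, 721, 692, 670 and 747 without carbachol and 802, 747, 670, 765 and 800 with it. Mometasone libraries had 668, 628, 525, 649 and 670 without and 654, 666, 552, 702 and 634 with it, and the groups overlapped. Indacaterol libraries had 726, 704, 643, 673 and 770 without and 888, 851, 710, 865 and 779 with it. With both drugs the values were 567.4, 567.5, 503, 562 and 601 without and 718, 724, 591, 705 and 715 with carbachol, where only replicate 3 with carbachol (591) was below a library without. The pooled change was 0.16 (SE 0.02, 1.12-fold, 95% interval 1.08 to 1.15, adjusted p = 5.00e-04). CALR falls outside the rule by which genes were named and is described because its values stood beside those of HSPA5.

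By background CALR changed by 0.08, 0.03, 0.22 and 0.30 in the same order. The difference between backgrounds with and without indacaterol was 0.20 (SE 0.05, unadjusted p = 1.07e-04, limma adjusted p = 0.33). Its change in the 2 backgrounds with indacaterol was 0.26 (adjusted p = 2.33e-05) and in the 2 without 0.06 (adjusted p = 1.00). Without the background of both drugs CALR had a change of 0.11 (adjusted p = 0.17), and without the replicate block its adjusted p was 0.47.

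**Figure D2:**
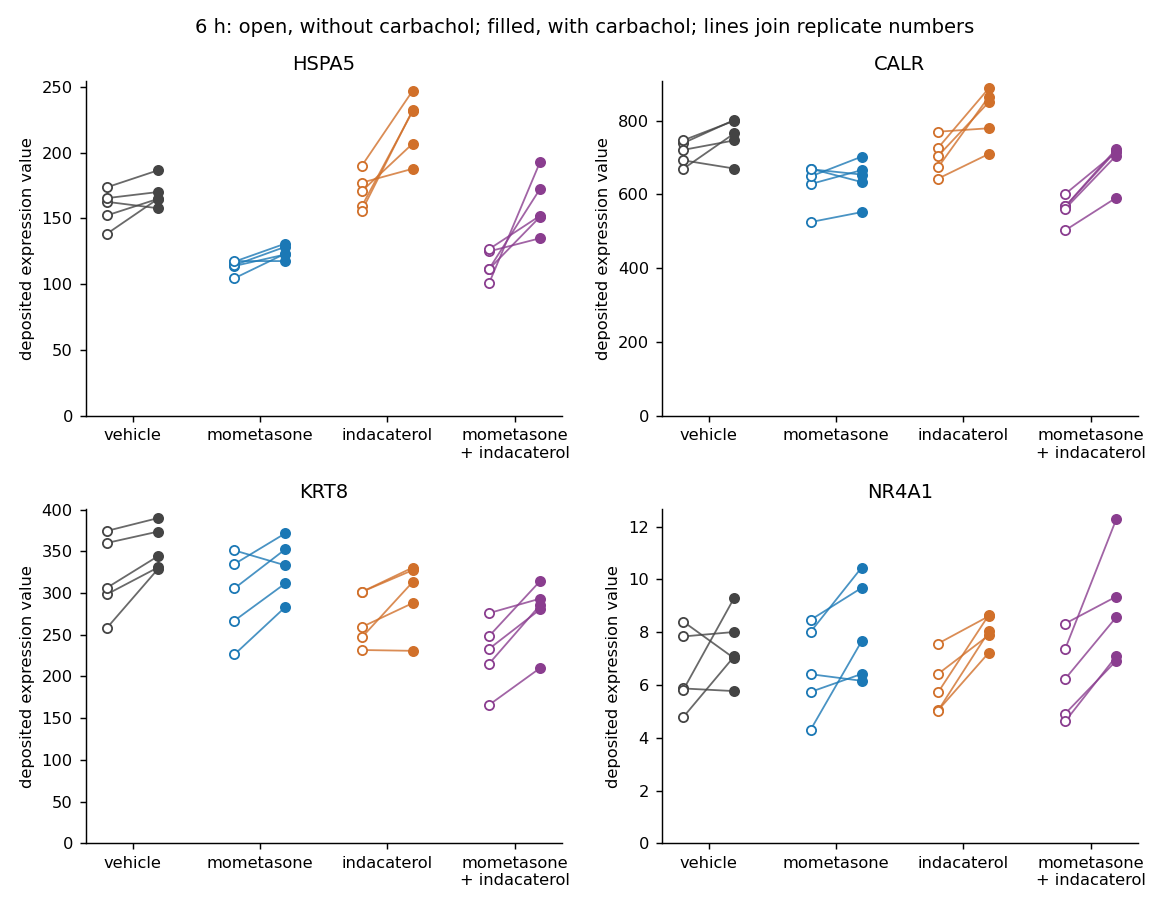
Deposited expression values at 6 h of HSPA5, CALR, KRT8 and NR4A1 by background. Open points are libraries without carbachol, filled points those with it, and lines join the same replicate number (5 pairs per background). HSPA5 runs from 101 to 127 without and 135 to 193 with carbachol when both drugs are present, while its vehicle libraries overlap.

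Other ER genes were described by 5 lists drawn up after earlier results of these data were known, so their counts are no independent evidence. Of 15 ER chaperones and co-chaperones 2 were called (HSPA5, CALR), 14 lay above 0, and the median change was 0.05 against 0.0016 over all genes. Among all tested genes 0.153% were called and 51.2% lay above 0. In the backgrounds with indacaterol all 15 lay above 0 with a median of 0.14, and in those without 6 did, with a median of -0.01. Over all tested genes 53.9% and 45.7% lay above 0, with medians of 0.01 and -0.01. The medians with indacaterol include the library of high mitochondrial share. DNAJB11, an HSP40 co-chaperone of HSPA5, had 0.07, DNAJC10, a disulfide reductase that works with HSPA5, had 0.16 and HYOU1, a large HSP70 relative, 0.08. None of these passed adjustment in limma, with unadjusted p of 0.00229, 0.00941 and 0.0344, and they were named, like HSP90B1 and CANX, after their values were seen. HSP90B1 (GRP94), which holds ERSE matches on each strand, had 0.05 and was higher in 14 of 20 pairs.

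None of 12 disulfide isomerases and oxidases was called, against 0.153% of all tested genes. An unadjusted p below 0.05 was found for 3, all higher, against 4.12% higher at that p over all tested genes. PDIA4, an isomerase of the ER lumen, lay just outside the threshold with a change of 0.10 in 17 of 20 pairs (limma, adjusted p = 0.0505), and SQSTM1 lay just inside it (adjusted p = 0.0493). PDIA6 changed by 0.09 and PDIA3 by 0.09. Of 15 tested genes of ER-associated degradation, which returns misfolded proteins to the cytosol, none was called. Of these 12 lay above 0 (median 0.03), against 51.2% over all tested genes. UBE2J1, a ubiquitin-conjugating enzyme of this route, had the largest value, 0.07. Of the 16 sensors and transcription factors none was called, with a median of 0.01. CEBPB, a basic leucine zipper factor, was lowest with -0.14 and the sensor kinase ERN1 (IRE1) highest with 0.09.

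**Figure D3:**
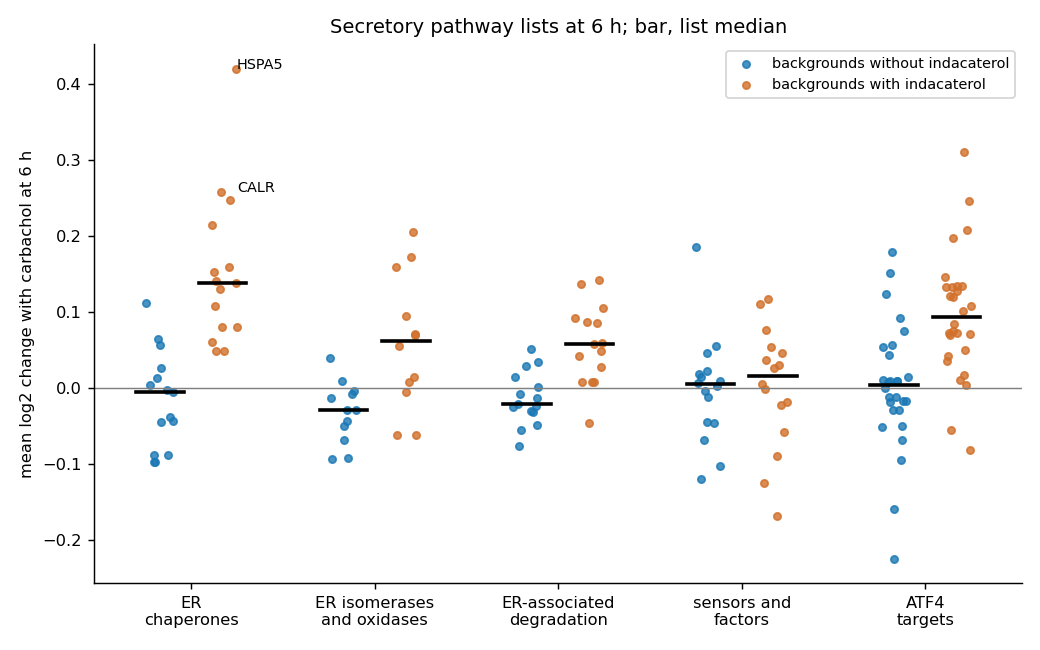
Mean log2 change with carbachol at 6 h for each tested gene of 5 lists, in the 2 backgrounds without indacaterol (blue) and the 2 with it (orange); black bars are list medians. Chaperones have a median of -0.01 without and 0.14 with indacaterol, and HSPA5 and CALR are labelled.

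The genes that carry ERSE or ERSE-II in a promoter window were taken up because the called genes HSPA5 and CALR hold the element, so both are in the set by choice and its counts are no independent evidence. Of the 30 tested at 6 h, 24 lay above 0, with a median of 0.03, and 4 had an unadjusted p below 0.05 (HSPA5, CALR, PDIA6, HYOU1), all higher. Over all tested genes 51.2% lay above 0, the median was 0.0016, and 4.12% were higher at that p. The change of the genes with either element was larger with indacaterol in 25 of 30, with a median difference of 0.08, against 7704 of 13760 and 0.02 over all genes. CANX, the membrane-bound relative of calreticulin, had a pooled change of 0.09. It changed by 0.16 in indacaterol and 0.27 in both drugs, and by -0.03 in vehicle and -0.05 in mometasone. The difference between backgrounds with and without indacaterol was 0.26 (limma, unadjusted p = 0.0402). Its largest pair values were 0.58 in both drugs, replicate 1, which holds the library of high mitochondrial share, and 0.52 in indacaterol, replicate 2.

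XBP1, the transcription factor spliced by IRE1, was 0.24 higher at 1 h (adjusted p = 0.00121) and 0.40 at 2 h (adjusted p = 2.56e-11) but 0.0047 at 6 h. HERPUD1, an ER membrane protein of the degradation route, was 0.44 higher at 2 h (adjusted p = 5.73e-06) and 0.02 at 6 h, a difference of -0.42 between those times (limma, adjusted p = 8.25e-04). DDIT3 (CHOP), a factor of the PERK branch, was 0.50 and 0.42 higher at 1 and 2 h and -0.05 at 6 h. It differed from 1 h by -0.56 (adjusted p = 0.00323) and from 2 h by -0.48 (adjusted p = 0.00527). The change of HSPA5 went from 0.32 through 0.40 to 0.27 over the same times. Its difference at 6 h from 1 h was -0.05 (SE 0.06, adjusted p = 1.00) and from 2 h -0.13 (SE 0.06, adjusted p = 0.94). CALR was 0.11 at 1 h and 0.15 at 2 h, neither called (adjusted p = 0.0949 and 0.09), and 0.16 at 6 h. At 18 h HSPA5 stood at -0.05 and CALR at -0.03, and no gene of the 13794 tested was called (0%), with 7.1% at an unadjusted p below 0.05. Fewer libraries had a column at 18 h, and that fit had 20 residual degrees of freedom against 28 at 6 h. The count at 18 h is therefore not on an equal footing with that at 6 h.

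Few of the genes called early were called at 6 h. At 1 h carbachol had raised 75 genes (0.543% of 13806), and of these HSPA5 and NR4A1 were called at 6 h; 3 were lower (0.0217%), none of them called at 6 h. Their median change went from 0.34 to 0.01, 47 of the 75 lay above 0 at 6 h, and 9 had an unadjusted p below 0.05 in the same direction. A direct comparison of 6 h with 1 h called 37 of the 75 as lower. These genes were chosen by values of the same 1 h libraries, which favours a smaller change at 6 h. The same holds wherever genes called at 2 h are compared with 6 h. Over all genes that comparison called 44 of 14302 lower (0.308%) and 2 higher (0.014%). At 2 h 69 genes were raised (0.499% of 13826), of which 68 were tested at 6 h. HSPA5, NR4A1 and TINAGL1 were called there, the median went from 0.26 to 0.03, and 14 of the 68 had an unadjusted p below 0.05 in the same direction. Of the genes raised at 2 h, 19 were called lower in the comparison of 6 h with 2 h, which called 26 of 14314 genes lower (0.182%) and 4 higher (0.0279%). Of 12 genes lowered at 2 h (0.0868%), TMEM160 was called at 6 h and 5 had an unadjusted p below 0.05 in the same direction. Their median went from -0.20 to -0.08, and C4orf48 had the lowest value at 6 h, -0.47 (limma, adjusted p = 0.0691). The early times together had 134 called genes, 4 of which were also called at 6 h, against 0.153% of all tested genes. Of the 21 genes called at 6 h, 17 were called at neither earlier time, when 0.565% (1 h) and 0.586% (2 h) of all tested genes were called. Not called does not mean unchanged: 19 of the 21 had the same sign at 1 h and 17 at 2 h. An unadjusted limma p below 0.05 in the same direction was found for 8 and 10 of them. Over all tested genes 8.25% and 6.5% had such a p in either direction.

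NR4A1, an orphan nuclear receptor and immediate early gene, was the one transcription factor of the early list that was still called. At 1 h its mean was 11.8 ± 3.24 (SD, n = 5) with vehicle and 73.5 ± 31.9 with carbachol. At 6 h vehicle libraries had 5.87, 8.40, 7.84, 5.82 and 4.79 without carbachol and 5.77, 7.01, 8.01, 9.31 and 7.09 with it, and these groups overlapped. Mometasone libraries had 5.74, 8.02, 6.41, 8.47 and 4.31 without and 6.42, 10.45, 6.16, 9.68 and 7.66 with it. With indacaterol the values were 5.04, 6.42, 5.72, 7.57 and 5.03 without and 7.23, 7.89, 8.66, 8.61 and 8.03 with carbachol, where only replicate 1 with carbachol lay below the highest library without. With both drugs they were 4.92, 8.33, 6.24, 7.38 and 4.63 without and 6.92, 9.35, 8.57, 12.28 and 7.09 with it. It was higher in 17 of 20 pairs, by 0.32 (SE 0.06, 1.24-fold, adjusted p = 0.00901), against 1.81 (3.51-fold) at 1 h and 0.85 (1.80-fold) at 2 h. The 6 h change differed from that at 1 h by -1.497 (SE 0.14, adjusted p = 3.27e-11) and differed from 2 h by -0.53 (SE 0.09, adjusted p = 7.21e-04). Its adjusted p lost the threshold without replicates 1, 4 or 5 (0.0866, 0.0706 and 0.23).

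No other immediate early factor was called at 6 h. FOSB, an AP-1 subunit, went from 1.65 at 1 h to 0.07 (difference -1.57, adjusted p = 3.88e-09), and EGR1, a zinc finger factor, from 1.05 to 0.03 (difference -1.02, adjusted p = 0.00125). NR4A2 went from 1.03 to 0.0063 and NR4A3 from 0.99 to -0.0031, FOS from 0.80 to -0.03, and ATF3, a stress-induced factor, from 0.99 to 0.10. JUNB was 0.65 at 1 h, 0.51 at 2 h and -0.09 at 6 h, with carbachol higher in 3 of 20 pairs at 6 h. Of the 25 immediate early factors tested, 15 were called at 1 h, 7 at 2 h and NR4A1 alone at 6 h, when the list median was -0.0031. Over all tested genes 0.565%, 0.586% and 0.153% were called at these times. At an unadjusted p below 0.05, 4 of the 25 were higher at 6 h, NR4A1 included, and 1 was lower (KLF2, a zinc finger factor, at -0.18), against 7.08% of all genes in either direction. KLF10 was 0.59 at 2 h and 0.20 at 6 h, higher in 17 of 20 pairs but not called (adjusted p = 0.31). CCN2, a secreted matricellular protein and YAP target, went from 0.72 at 1 h to -0.21 at 6 h, lower in 18 of 20 pairs. Its 6 h value was not called (limma, adjusted p = 0.16), and its difference from 1 h was -0.93 (adjusted p = 5.20e-09).

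**Figure D4:**
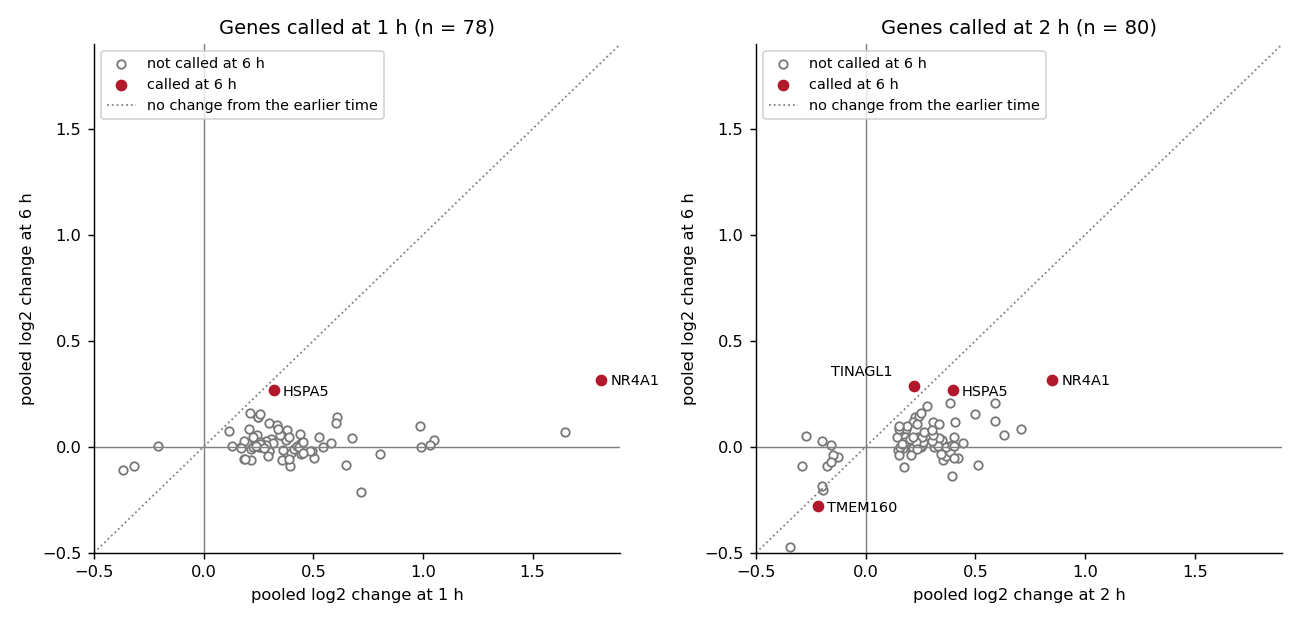
Pooled log2 change at 6 h against that at 1 h (left, 78 genes) or 2 h (right, 80 genes) for every gene called at the earlier time and tested at 6 h; the dotted line marks equal change. Nearly all points lie close to 0 on the 6 h axis, and filled points mark HSPA5, NR4A1, TINAGL1 and TMEM160, the genes also called at 6 h.

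Of 19 tested feedback genes of ERK signalling, 7 were called at 1 h, 2 at 2 h and none at 6 h. Over all tested genes 0.565%, 0.586% and 0.153% were called at these times, so none of 19 at 6 h is near the share over all genes. At 6 h 5 of the 19 lay above 0, against 51.2% over all tested genes, and their median was -0.01. DUSP5, a nuclear ERK phosphatase, went from 0.67 at 1 h through 0.33 to 0.04, and SOCS3, a feedback inhibitor of cytokine signalling, from 0.71 at 2 h to 0.08. NAB2, a co-repressor of EGR factors, went from 0.63 at 2 h to 0.05 (difference -0.58, adjusted p = 3.75e-09). None of 13 NF-κB feedback genes was called at 6 h, which is near the 0.153% over all tested genes. Among these 13 RELB, an NF-κB subunit, had 0.38 at 2 h and 0.21 at 6 h (18 of 20 pairs, adjusted p = 0.16).

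KRT8, a keratin of simple epithelia, rose at 6 h without having been called earlier (0.05 at 1 h and 0.05 at 2 h). Vehicle libraries had 299, 360.0, 258, 306 and 374 without carbachol and 331, 374, 329, 344 and 390 with it. With both drugs the values were 215, 248, 166, 233 and 276 without and 285, 314, 210.0, 280 and 293 with carbachol. The ranges overlapped in these backgrounds, yet 18 of all 20 pairs were higher. The change was 0.19 (SE 0.03, 95% interval 0.13 to 0.25, adjusted p = 9.87e-04) and lay between 0.15 and 0.29 in the 4 backgrounds. Without the replicate block it did not pass (adjusted p = 1.00).

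SEL1L3, a transmembrane protein related to SEL1L, was the called gene that was higher in 20 of 20 pairs. Vehicle libraries had 13.8, 15.8, 14.3, 14.7 and 11.2 without and 16.8, 19.7, 19.0, 19.3 and 14.5 with carbachol, and 4 of these 5 exceeded all libraries without. Its change was 0.24 (SE 0.04, 1.18-fold, adjusted p = 0.00377), with 0.34 in vehicle, 0.23 in mometasone, 0.18 in indacaterol and 0.23 in both drugs. PLEKHA4, a phosphoinositide-binding protein, had 12.6, 14.1, 10.1, 13.3 and 18.5 in vehicle without carbachol and 19.1, 19.3, 16.8, 21.1 and 25.9 with it. Its change was 0.56 in vehicle, 0.37 in mometasone, 0.12 in indacaterol and 0.21 in both drugs (pooled 0.31, SE 0.06, adjusted p = 0.00901). Alone among the called genes, it had a smaller change with indacaterol at an unadjusted p below 0.05 (difference -0.29, SE 0.11, limma unadjusted p = 0.0141, adjusted p = 0.64).

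The list of ATF4 targets held 2 called genes: WARS1, the cytosolic tryptophanyl-tRNA synthetase, and MTHFD1L, an enzyme of mitochondrial folate metabolism. WARS1 was higher in 19 of 20 pairs by 0.22 (SE 0.04, 1.16-fold, adjusted p = 0.00913). In indacaterol it had 49.8, 47.5, 38.4, 51.4 and 40.4 without and 63.9, 65.2, 44.8, 62.1 and 46.3 with carbachol, whereas in mometasone the values were 51.4, 42.8, 49.5, 50.6 and 36.2 without and 49.6, 46.6, 50.9, 52.8 and 45.5 with it. MTHFD1L was higher in 19 of 20 pairs by 0.18 (adjusted p = 0.0334). The remaining 26 of these 28 ATF4 targets were not called, and the list's median was 0.05 with 21 above 0. Over all tested genes 0.153% were called and 51.2% lay above 0. ATF4 itself changed by -0.04, ASNS, the asparagine synthetase, by 0.02 and TRIB3, a pseudokinase induced by ATF4, by -0.01.

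Further called rises were spread over functions. TINAGL1, a secreted matricellular protein, rose by 0.28 in 19 of 20 pairs (adjusted p = 0.0181) and had been 0.22 higher at 2 h. SQSTM1 (p62), an autophagy receptor, rose by 0.23, with 0.08 in vehicle, 0.13 in mometasone, 0.28 in indacaterol and 0.44 in both drugs. ADGRE5 (CD97), an adhesion receptor, rose by 0.22 and LITAF, an endosomal membrane protein, by 0.19. SEPTIN9, a cytoskeletal GTPase, rose by 0.16 and GPC1, a cell surface heparan sulfate proteoglycan, by 0.16; both fall outside the naming rule.

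The 6 called falls were mostly genes of low value. CARD9, an adaptor of innate immune receptors, had a median of 1.11 without carbachol (0.29 to 1.56) and 0.58 with it (0.38 to 0.96), a fall in 18 of 20 pairs with a log2 change of -0.33 (adjusted p = 0.031). LRRC26, an auxiliary subunit of BK potassium channels, had a median of 2.72 without and 1.77 with carbachol (change -0.37, adjusted p = 0.0334). SOX12, a SOX transcription factor, changed by -0.17 (adjusted p = 0.0357) and TMEM160 by -0.28 (adjusted p = 0.0439). GP1BB ranged from 0.56 to 8.17 without and from 0 to 3.09 with carbachol (change -0.96, SE 0.20, adjusted p = 0.0357), was at 0 in several libraries, and overlaps a readthrough transcript. GTF2IRD2B (-0.34, adjusted p = 0.0357) has near-identical copies. How reads were shared among overlapping or copied genes is not given in the sources used here, so both are uncertain.

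Each background was also tested alone, with 5 pairs. No gene was called in vehicle (0%, smallest adjusted p = 0.16, unadjusted p below 0.05 in 2.36%), in mometasone (0%, 0.11, 3.68%) or in indacaterol (0%, 0.27, 3.78%). In both drugs 3 were called (0.0218%), HSPA5 (0.47), CALR (0.30) and LMNA (0.29, SE 0.05, adjusted p = 0.0165), and 9.51% had an unadjusted p below 0.05. This background holds the library of high mitochondrial share, and its count fell without that library and its pair. Leaving out a replicate number gave 0 to 5 calls in this background. LMNA encodes lamins A and C of the nuclear envelope. With both drugs it had 207, 226, 178, 216 and 255 without carbachol and 252, 279, 214, 286 and 290 with it, and in vehicle 393, 421, 383, 417 and 446 without and 376, 420, 382, 414 and 419 with it. The values with both drugs overlapped, yet all 5 pairs were higher, whereas in vehicle none of 5 was. LMNA was not called in the tests of a difference between backgrounds that follow.

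The difference between backgrounds was tested directly over all genes. No gene was called for carbachol by mometasone (0%, with 2.39% at an unadjusted p below 0.05). Carbachol by indacaterol called IGFBP3 alone (0.00727%, with 6.95% at an unadjusted p below 0.05), which encodes a secreted binding protein of insulin-like growth factors. IGFBP3 had 86.3, 98.7, 110, 81.1 and 97.7 in vehicle without and 102, 112, 128, 100.3 and 111 with carbachol, and 76.7, 86.8, 94.0, 84.0 and 108 in mometasone without and 100.5, 104, 115, 106 and 122 with it. All 5 pairs were higher in each. With indacaterol it had 108, 94.6, 127, 101 and 120 without and 102, 92.1, 111, 89.9 and 121 with carbachol, and with both drugs 97.7, 121, 120, 105 and 125 without and 105, 105, 108, 94.4 and 117 with it, where 1 of 5 pairs was higher in each. The change was 1.17- and 1.22-fold in the first 2 backgrounds and 0.94- and 0.93-fold in the others, a difference of -0.35 (SE 0.06, adjusted p = 0.0199). Pooled over 4 backgrounds the opposing values gave 0.08, which was not called (adjusted p = 0.52). The IGFBP3 call was lost in each fit without 1 replicate number, without the block, with rescaled libraries and with all times in a joint fit.

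Among the 21 called genes 14 changed further in their own direction with indacaterol, 6 of them with an unadjusted p below 0.05 (HSPA5, CALR, WARS1, SQSTM1, LRRC26, GP1BB). Over all tested genes 60.5% changed further in their own direction with indacaterol, near the 66.7% of the called genes, and 4.92% did so at that p, against 28.6% of the called genes. The called genes were chosen in the same fit, and both tests share its estimate of scatter. That choice favours small p-values here, so the higher share is no independent evidence. None of the 6 named differences passed over all genes. The pooled count was 4 in the 2 backgrounds without indacaterol and 26 in the 2 with it; the difference of the counts was not tested.

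Muscarinic receptor RNA was scarce. CHRM3, a Gq-coupled subtype, averaged 1.23 over the 40 libraries and passed the filter, and its change with carbachol was 0.06 (SE 0.07, limma adjusted p = 0.90). CHRM1 (0.0248), CHRM2 (0.073), CHRM4 (0.554) and CHRM5 (0.116) did not pass it. In vehicle libraries CHRM3 had a mean of 1.59 ± 0.66 (SD, n = 5) without and 1.82 ± 0.26 with carbachol, and with both drugs 0.76 ± 0.19 without and 0.91 ± 0.19 with it. BCHE, the enzyme that hydrolyses choline esters, was higher than these receptors at 109.6 and changed by 0.04. Nicotinic receptor subunits also passed the filter, and none was called. CHRNB1 ranged from 38.1 to 67.9 (change -0.04) and CHRNA5 from 1.32 to 4.79 (change 0.10).

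None of the tested genes was called at 6 h in the lists of Gq signalling (26), calcium and NFAT (21), cyclic AMP targets (18), EGF receptor ligands and receptors (10), cytokines and chemokines (9), YAP and SRF targets (20), matrix remodelling (19), clock (17), glucocorticoid targets (19), mucins (3), cell cycle (21) or apoptosis and stress (17). Over all tested genes 0.153% were called, so none in lists of these sizes is near that share. PLCB1, a phospholipase C, had the largest value in these lists, 0.43, from a mean of 1.10 (adjusted p = 0.62). Of 18 cholesterol synthesis genes none was called. Of these 12 lay above 0, against 51.2% over all tested genes. An unadjusted p below 0.05 was found for 5, all higher, against 4.12% over all tested genes. Their median was 0.05. INSIG1, which retains the SREBP complex in the ER, had 0.15 in 17 of 20 pairs (adjusted p = 0.22). All 13 mitochondrially encoded mRNAs lay below 0 (median -0.09) and none had an unadjusted p below 0.05. With the mitochondrial share of each library as a covariate the pooled count was 33, and HSPA5 had 0.26 and CALR 0.16.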

How the data were processed

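RNA-seq of BEAS-2B cells (8 treatments, 4 times, 5 replicates) was analysed from the expression table that the authors deposited. Its unit is a signal per gene: the authors' table is called TPM, but the deposited columns summed to 878947 to 1297820 at 6 h, so depth is unknown. Per the submitters' processing notes, bcl2fastq 2.17.1.14, STAR 2.4.2a and GRCh38 were used; quantifier, annotation, strand setting, scaling and the kit of each library were not given in the sources used. Of the per-sample columns 10 were not used: 4 marked as excluded and 6 headed 8 h, a time the labels do not have. Matched columns existed for 150 of the 160 samples, and the missing ones were at 1 h and 18 h. This left 18 same-number pairs at 1 h, against 20 at 2 h and 20 at 6 h.

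Genes at 1 or more in at least 5 libraries were kept. limma 3.58.1 (R 4.3.3) was fitted to log2(value + 1) of the 40 libraries at 6 h with 8 group means and the replicate number as a block (28 residual degrees of freedom, empirical Bayes with trend), adjusting by Benjamini-Hochberg over 13760 genes (threshold 0.05). The pooled effect is the mean of the 4 differences. Other times were fitted alike, and times were compared in joint fits. Of 20 same-number pairs 19 deviated together (correlation above 0.1; indacaterol replicate 2 did not), so the pairing is a hint from the data, and the count without the block stands beside the first result. Tested on simulated data with 200 of 13760 genes changed, the pooled 6 h fit recovered 28% at a log2 change of 0.15 and 80% at 0.3.

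The members, lists and tests were chosen with earlier results of these data known. Named genes were the 12 largest rises and up to 8 largest falls called at 6 h, the 10 largest changes called at 1 h and at 2 h, up to 3 per list, the cholinergic receptors, and genes called for a difference between backgrounds; others are marked, and 1 called gene is not reported here. Alternatives varied the block, pseudocount, filter, scaling, trend, joint times, and the replicates, libraries and backgrounds used.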

Additional observations from a re-analysis of the deposited data

Results flagged for a closer look

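In 4 cases a result stood out because 1 of 5 replicates was far from the other 4, out of 76 groups of 5 examined, where chance alone gives about 1 in 20. Replicate 1 of the mometasone plus indacaterol group without carbachol had 28.02% of its signal in mitochondrially encoded RNA, against 8.07% to 13.5% in the other 4. HSPA5 in mometasone without carbachol was 104.5 in replicate 2, against 114 to 118. CALR in mometasone without carbachol was 525.1 in replicate 3, against 628 to 670, and with both drugs and carbachol it was 591.1 in replicate 3, against 705 to 724.

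Other results stood out because the carbachol effect differed between times or backgrounds by a direct limma test over all genes, with an adjusted p below 0.05. IGFBP3 differed by -0.35 between backgrounds with and without indacaterol. Between 6 h and 1 h the pooled change differed by -1.57 for FOSB, -1.50 for NR4A1, -1.03 for NR4A2, -1.02 for EGR1, -0.99 for NR4A3, -0.93 for CCN2, -0.89 for ATF3, -0.84 for FOS, -0.73 for JUNB, -0.63 for DUSP5 and -0.56 for DDIT3. Between 6 h and 2 h it differed by -0.63 for SOCS3, -0.60 for JUNB, -0.58 for NAB2, -0.53 for NR4A1, -0.48 for DDIT3, -0.42 for HERPUD1, -0.39 for KLF10 and -0.35 for MIDN.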

How the results depend on the processing

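All 462 recomputed values of the 21 called genes kept their direction, which their selection by adjusted p in the same or overlapping libraries favours. Of 171 recomputed counts 97 stayed within 1.5 times, and where a count moved, the cause was not tested. HSPA5 was called in 19 of 22 alternatives, CALR in 18 and KRT8 in 17. Same-numbered libraries mostly deviated together (19 of 20 pairs), and without the replicate block the pooled count at 6 h was 1, that at 1 h 12 and at 2 h 15, the background of both drugs had 1, carbachol by indacaterol 0, the comparisons with 1 h and 2 h had 7 and 7, and of the early genes 1 and 1 were called at 6 h. Leaving out 1 replicate number gave 4 to 15 pooled calls at 6 h, 27 to 61 at 1 h, 33 to 70 at 2 h, 0 to 5 in both drugs, 0 to 0 for carbachol by indacaterol, 15 to 26 and 12 to 20 in the comparisons with 1 h and 2 h, and 1 to 2 and 1 to 3 early genes. Without a filter, vehicle, mometasone and indacaterol had 1, 2 and 1 calls, and the comparison with 1 h had 30; without the variance trend vehicle and mometasone had 1 and 2. Rescaled libraries gave 20 pooled calls (16 higher, 4 lower) and 0 for carbachol by indacaterol. With all 4 times in 1 fit vehicle had 1, mometasone 3, carbachol by indacaterol 0 and the 1 h genes 1. Pooled calls were 8, 6 and 4 without the mometasone, indacaterol or combined background, with 2, 2 and 1 of the 2 h genes and, for the last 2, 1 and 0 of the 1 h genes. The 5 replicate means gave 0 pooled calls and 0 and 0 early genes. Chosen after seeing the data, the fit without the library of high mitochondrial share and its pair gave 9 pooled calls and 1 in both drugs, that without indacaterol replicate 2 and its pair 9, the 2 backgrounds without indacaterol 4 (1 h genes 0, 2 h genes 1), the 2 with it 26 (2 h genes 2), and the mitochondrial covariate 33. Depth is unknown, so no counting error can be given; on simulated data 28% of changes of 0.15 were recovered, so changes of the size of CALR could be missed.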
